A study of Mus musculus with 6 samples.

Results

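The TNF ligand and receptor superfamily was examined in mesenchymal stem cells (MSCs) with and without a conditional deletion of Pcif1. Members were Tnf and the genes named Tnfsf or Tnfrsf, the read-through gene Tnfsfm13 included, together with Fas, Ltb, Ltbr, Cd40 and Cd27. Tnfsf11 (RANKL) and its receptors Tnfrsf11a and Tnfrsf11b were set apart by the rule. The rule also spells out Fasl and Cd70, which were not analysed here. It gave 34 genes, 21 receptors and 13 ligands, of 20071 genes counted.

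MSCs are stromal cells that can form osteoblasts, the cells that build bone. They were taken from the femurs of 6-week-old Pcif1fl/fl mice (WT below, as in the labels) and Prrx1-Cre;Pcif1fl/fl mice (CKO below), and RNA was collected after 7 days in osteogenic medium, which held ascorbic acid at 50 µg/mL, β-glycerophosphate at 5 mM and dexamethasone at 100 nM. Both genotypes carried the floxed Pcif1 alleles, and Prrx1-Cre, a recombinase driven by a promoter of limb mesenchyme, was present only in CKO mice, and cells of other lineages in a culture are not its targets. There were 3 libraries per genotype. The labels do not say whether they came from separate animals or cultures, and p-values measure the spread between these libraries only.

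Members of the TNF superfamily are trimeric ligands, most of them made on the cell surface and some cut free by proteases, and the receptors they cluster. Receptors with a death domain, such as TNFR1 and Fas, can start cell death through FADD and caspase-8, and most others recruit TRAF adaptors that lead to NF-κB and MAP kinases. In bone the family is best known through RANKL, which drives osteoclast formation, and through TNF, which favours bone resorption and restrains osteoblast differentiation. PCIF1 adds the m6Am mark to the first base of an mRNA after the cap where that base is adenosine.

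Total counts were between 20258209 and 28227696 per library. WT replicate 3 stood apart: mitochondrial genes took 3.63% of its counts and between 1.40% and 1.57% of those of the other 5 libraries. Calls of members that change without it are therefore given both ways, and calls in the lists of TNF pathway genes only as a total. Levels are given as CPM, which are counts corrected for library size. Xist was between 232 and 443 CPM in WT and between 0.72 and 1.79 CPM in CKO libraries, and genotype and the sex composition of the cultures cannot be told apart. Pcif1 counts per gene do not show the deleted exons, and its levels overlapped between genotypes. The cultures carried mesenchymal genes, Prrx1 at 211 to 283 CPM in the 6 libraries, but also macrophage genes at high levels, Lyz2 at 21980 to 26233 CPM. Bglap, a gene of mature osteoblasts, had between 1 and 5 counts per library. In such mixed cultures, fewer cells of a type and less RNA per cell cannot be told apart.

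Of the 34 members, 28 passed the expression filter and were tested, among 13733 genes. Tnfrsf12a and Tnfsf18 were higher in CKO and Tnfrsf19 was lower, each by more than 1 on the log2 scale (3.53% of all genes tested passed both thresholds), and TNF itself and its receptors TNFR1 and TNFR2 did not pass the test. These 3 called genes are 10.7% of the members tested, beside 7.40% of all genes tested (Benjamini-Hochberg adjusted p under 0.05 in the quasi-likelihood test of edgeR). By direction, 2 members were called higher (7.14%, beside 2.88% of all genes) and 1 lower (beside 4.51%). Of the 28 members, 3 passed the filter through the CKO libraries alone, Tnfsf18 among them, and 1 through the WT libraries alone, so these shares and the counts by sign are descriptions. The median log2 fold change was 0.16 over the members tested and 0.0017 over all genes tested, with 17 members above 0 and 11 below, whereas 49.7% of all genes tested lay below 0. The genotypes did not overlap in 7 of the 28 members, 5 with CKO above and 2 with CKO below, whereas 30.8% of all genes tested did not overlap (15.0% with CKO above and 15.7% with CKO below).

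The annotated start sites of the 3 called genes and of Tnf, Tnfrsf1a and Tnfrsf1b are shown because the first transcribed base is the one PCIF1 can methylate. Each window holds 30 bases, 5′ to 3′ on the strand of the gene, from the RefSeq annotation of GRCm38.p6, and the capital marks the annotated first base.
Tnfrsf12a, chr17:23677435-23677464, minus strand: gcgggtggtgggagcAgacagttcttgcct
Tnfrsf19, chr14:61046841-61046870, minus strand: tgtaaggcaggtgttCggagaaacggccta
Tnfrsf19, chr14:61037973-61038002, minus strand: ggttccagctgcagcGgttgccgggctaca
Tnfsf18, chr1:161494642-161494671, plus strand: tcgttcatccatcacTtgtgggtatctgct
Tnf, chr17:35201993-35202022, minus strand: tctgcacagccagccAgcagaagctccctc
Tnfrsf1a, chr6:125349708-125349737, plus strand: aggctcttccggtccCgctcttgcaacacc
Tnfrsf1b, chr4:145246856-145246885, minus strand: gagggtttcgctttcAgtcaccagctagag
Tnfrsf12a, Tnf and Tnfrsf1b had an annotated first A, and neither start of Tnfrsf19 nor those of Tnfsf18 and Tnfrsf1a did. RefSeq starts were found for 27 of the 34 members, and 11 of their 31 starts (35.5%) began with A, beside 34.4% of all RefSeq starts in the table. For the members tested 10 of 24 starts (41.7%) began with A, beside 29.5% for all genes tested. The first Tnfrsf19 start shown lies outside the gene as GENCODE M21 has it. An annotated start need not be the one used in these cells, and m6Am was not measured in these libraries.

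Levels within the family are given as CPM per kb of exonic sequence, so that long and short genes can be set side by side. The death domain receptor Tnfrsf1a (TNFR1) had the highest level in WT, 99.0 ± 4.74 (SD, n = 3), followed by Tnfrsf1b (TNFR2, which lacks a death domain) at 73.9 ± 6.81 and Ltbr, the lymphotoxin-β receptor, at 49.5 ± 3.97. In CKO the levels of the first 2 came together, 92.9 ± 1.30 for Tnfrsf1a and 91.6 ± 0.971 for Tnfrsf1b, a distance within the spread of the libraries, and Ltbr stood at 48.4 ± 0.924. Tnfrsf21 (DR6, a further receptor with a death domain) was next at 18.4 ± 1.85 in WT, above but within the spread of Tnfrsf12a at 16.2 ± 4.77. In CKO Tnfrsf12a stood above Tnfrsf21, at 39.9 ± 0.926 against 14.6 ± 2.20. The WT order rested on WT replicate 3, and in the other WT libraries Tnfrsf12a was also the higher of the 2 per kb.

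The highest ligand was Tnfsf12 (TWEAK, the ligand of Tnfrsf12a), with 13.8 ± 4.84 CPM per kb in WT and 10.1 ± 1.06 in CKO, and 48.3% of its exonic bases are shared with the read-through gene Tnfsfm13 on the same strand. Tnf was at 1.67 ± 0.410 in WT and 2.61 ± 0.507 in CKO. Summed without regard to length, the family took 979 to 1038 CPM in WT and 1098 to 1122 CPM in CKO libraries, and ligands made up between 3.35% and 5.18% of that sum in the 6 libraries. Tnfrsf12a made up 2.12% to 3.73% of the family's CPM in WT and 6.93% to 7.06% in CKO.

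**Figure D1:**
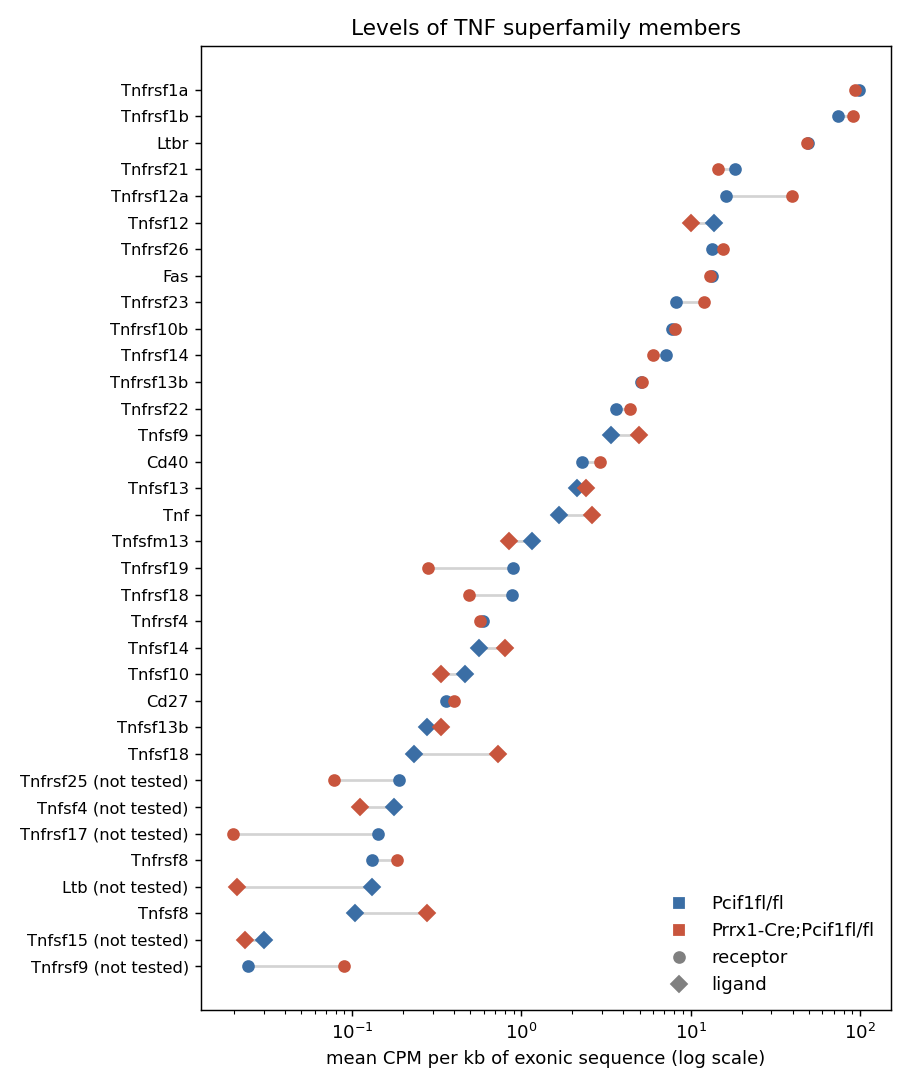
Mean level of each of the 34 members in CPM per kb of exonic sequence on a log axis, for Pcif1fl/fl (blue) and Prrx1-Cre;Pcif1fl/fl (red), with receptors as circles and ligands as diamonds. Tnfrsf1a, Tnfrsf1b and Ltbr stand above all other members in both genotypes, and Tnfrsf12a moves from 16.2 to 39.9.

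Tnfrsf12a (ENSMUSG00000023905, chr17:23675445-23677468 in GENCODE M21 on GRCm38) encodes Fn14, the small receptor of TWEAK, which has no death domain and signals through TRAF adaptors. Its level was 38.7, 34.3 and 21.0 CPM in WT replicates 1 to 3 and 76.1, 79.1 and 76.0 CPM in CKO replicates 1 to 3. Every CKO library was above every WT library, and WT replicate 3 was the lowest of the 6. The log2 fold change was 1.30 (SE 0.20, adjusted p = 0.00614, edgeR), from a mean of 31.3 ± 9.22 to 77.1 ± 1.79 CPM (SD, n = 3 libraries each). Without WT replicate 3 it was 1.08. Fn14 was called in 14 of 14 alternative fits, with log2 fold changes between 1.08 and 1.48. Its ligand Tnfsf12 did not pass the test: it was at 18.3, 15.3 and 29.2 CPM in WT and 13.5, 16.2 and 16.3 CPM in CKO, and the genotypes overlapped. The log2 fold change of Tnfsf12 was -0.45 (adjusted p = 0.314, edgeR), and -0.13 without WT replicate 3, its highest library.

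Tnfrsf19 (ENSMUSG00000060548, chr14:60963875-61046490) encodes TROY, a receptor expressed in skin appendages, the nervous system and stem cells and known as a target of Wnt signaling. It was at 5.33, 4.01 and 3.26 CPM in WT and 1.53, 0.747 and 1.73 CPM in CKO replicates 1 to 3. The lowest WT library held 91 counts and the highest CKO library 36, and the genotypes did not overlap. The log2 fold change was -1.64 (SE 0.33, adjusted p = 0.0192, edgeR), from 4.20 ± 1.05 to 1.34 ± 0.521 CPM. Without WT replicate 3 it was -1.78 (adjusted p = 0.00044, edgeR). The call was lost without WT replicate 1, WT replicate 2, CKO replicate 1 or CKO replicate 2, with adjusted p from 0.0572 to 0.0743 in edgeR.

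Tnfsf18 (ENSMUSG00000066755, chr1:161494655-161505290) encodes GITRL, the ligand of GITR, a co-stimulatory receptor of T cells. Its level was 0.611, 0.404 and 0.430 CPM in WT and 0.900, 2.14 and 1.44 CPM in CKO replicates 1 to 3. These values rest on 14, 11 and 12 counts in WT and 20, 43 and 30 in CKO, and every CKO library was above every WT library. It had a log2 fold change of 1.63 (SE 0.40, adjusted p = 0.0459, edgeR), and the call held in 8 of 14 alternative fits. It passed the filter (0.442 CPM in at least 3 libraries) through the CKO libraries alone, as did Tnfsf8 and Tnfrsf8. In the fit without a filter its adjusted p in edgeR was 0.0306, and without CKO replicate 2 it was 0.172. Without WT replicate 3 the log2 fold change was 1.56 (adjusted p = 0.0241, edgeR). Tnfrsf18, the gene of GITR, was at 0.655, 1.58 and 1.79 CPM in WT and 0.675, 0.846 and 0.722 CPM in CKO. WT replicate 1 lay below all 3 CKO libraries and WT replicates 2 and 3 above them, and its log2 fold change was -0.86 (SE 0.40, adjusted p = 0.268, edgeR). A gene on the opposite strand overlaps 27.2% of the exonic bases of Tnfrsf18.

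**Figure D2:**
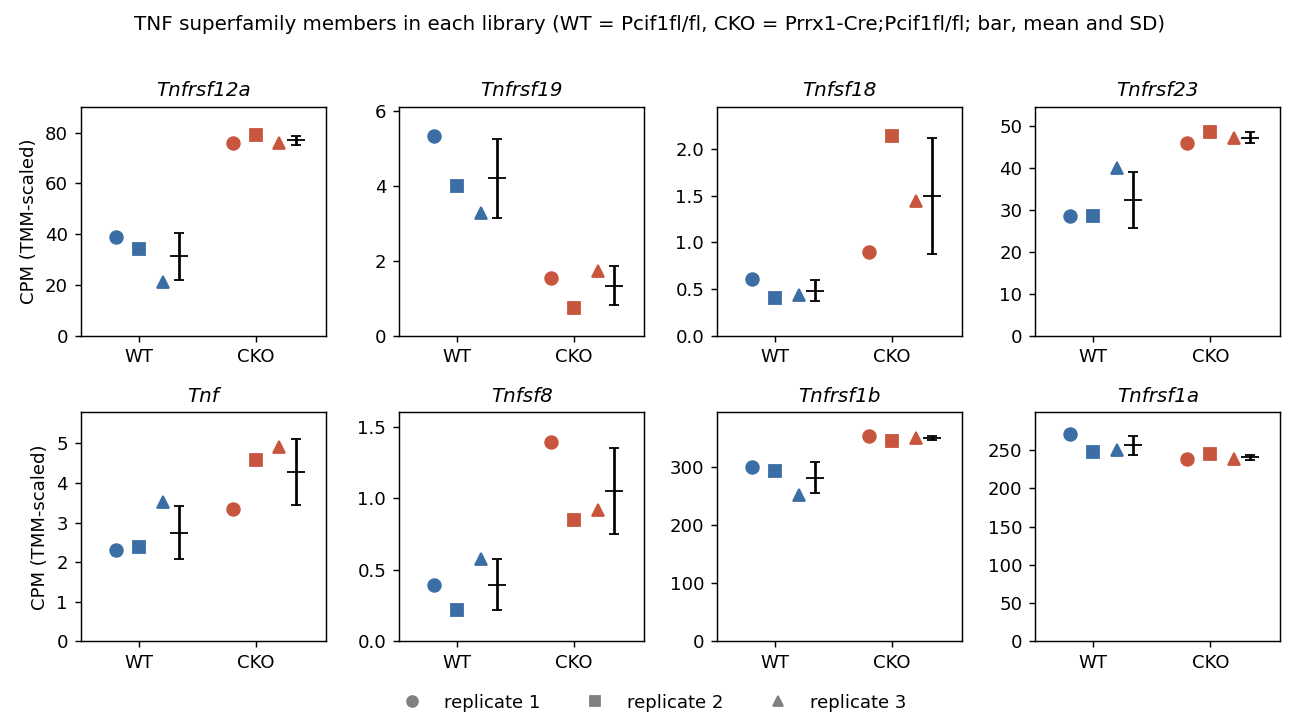
Level of 8 members in each library in CPM scaled by TMM factors, with Pcif1fl/fl libraries in blue, Prrx1-Cre;Pcif1fl/fl libraries in red, replicates 1 to 3 as circles, squares and triangles, and the mean and SD as bars. The panels hold Tnf and the 7 of 28 members tested in which the genotypes do not overlap, beside 30.8% of all genes tested. In Tnf replicate 3 of Pcif1fl/fl (3.51 CPM) lies above replicate 1 of Prrx1-Cre;Pcif1fl/fl (3.33 CPM).

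Tnf (ENSMUSG00000024401, chr17:35199381-35202007) was at 2.31, 2.39 and 3.51 CPM in WT and 3.33, 4.58 and 4.91 CPM in CKO replicates 1 to 3. WT replicate 3 lay above CKO replicate 1, and the other WT libraries lay below all CKO libraries. The log2 fold change of Tnf was 0.63 (SE 0.24, 95% interval 0.08 to 1.19, adjusted p = 0.174, edgeR), which did not pass the test. Without WT replicate 3 it was 0.86 (adjusted p = 0.016, edgeR), the only one of the 14 alternative fits in which Tnf was called. Tnf is made largely by macrophages, and the summed level of 14 macrophage genes overlapped between genotypes, 31596 to 35160 CPM in WT and 32649 to 35803 CPM in CKO. Lyz2 made up 67.0% to 73.3% of that sum, and the other macrophage genes summed to 8829 to 10207 CPM in WT and 9161 to 10816 CPM in CKO. Every CKO library was above every WT library in Adgre1, Itgam, Fcgr1 and Cx3cr1 and below in Csf1r. Of these, Fcgr1 and Cx3cr1 passed the test, and their part in the level of Tnf was not tested.

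Tnfrsf1a (ENSMUSG00000030341, chr6:125349362-125362484) was at 271, 248 and 250.4 CPM in WT and 238, 244 and 239 CPM in CKO replicates 1 to 3. All CKO libraries lay below all WT libraries, with WT replicate 2 and CKO replicate 2 next to each other. The log2 fold change of -0.092 (SE 0.082, adjusted p = 0.575, edgeR) did not pass the test, and its 95% interval ran from -0.28 to 0.097. Tnfrsf1b (ENSMUSG00000028599, chr4:145213463-145246870) was at 299.9, 294 and 252 CPM in WT and 353, 346 and 350.2 CPM in CKO. The genotypes did not overlap, and WT replicate 3 was the lowest library. The log2 fold change of 0.31 (SE 0.095, adjusted p = 0.0941, edgeR) did not pass the test. Tnfrsf1b was called without WT replicate 3 (0.24, adjusted p = 0.00919 in edgeR) and by DESeq2 (adjusted p = 0.0451).

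Fas, the receptor of Fas ligand, had a log2 fold change of -0.029 (95% interval -0.29 to 0.23), and Tnfrsf10b, the mouse TRAIL receptor, one of 0.057 (-0.16 to 0.28). Tnfsf10, the gene of TRAIL, was at 1.66, 1.43 and 4.23 CPM in WT and 1.31, 1.54 and 2.45 CPM in CKO. WT replicate 3 stood far above the other 5 libraries, and the log2 fold change of Tnfsf10 was -0.48 with it and 0.20 without it (adjusted p = 0.595 and 0.727, edgeR). Tnfrsf21 was at 74.1, 68.7 and 83.7 CPM in WT and 56.2, 70.2 and 53.3 CPM in CKO, with CKO replicate 2 inside the WT range, and a log2 fold change of -0.34 (SE 0.13, adjusted p = 0.185, edgeR).

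Tnfrsf22, Tnfrsf23 and Tnfrsf26 form a mouse cluster of 3 related genes within 78214 bases (chr7:143607659-143685872), and Tnfrsf22 and Tnfrsf23 encode decoy receptors of TRAIL. Reads may be shared between these paralogs, and the counting that was used is not known to separate them. A gene on the opposite strand overlaps 4.14% of the exonic bases of Tnfrsf23 and 3.33% of those of Tnfrsf26. Tnfrsf23 was at 28.6, 28.5 and 40.0 CPM in WT and 45.9, 48.5 and 47.2 CPM in CKO. The genotypes did not overlap, and WT replicate 3 was nearest to CKO. It differed by 0.54 on the log2 scale (SE 0.15, adjusted p = 0.0607, edgeR), just over the threshold, and was called in edgeR without an expression filter (adjusted p = 0.0418) and by DESeq2 (adjusted p = 0.0147). Tnfrsf22 and Tnfrsf26 overlapped between genotypes, with log2 fold changes of 0.28 and 0.21. Without WT replicate 3, all 3 genes of the cluster were called higher in CKO, at log2 fold changes of 0.73 for Tnfrsf23, 0.51 for Tnfrsf22 and 0.33 for Tnfrsf26, in a fit that called 11.1% of all genes tested higher.

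Among ligands of lymphocyte receptors, Tnfsf8 (CD30L) was at 0.393, 0.221 and 0.574 CPM in WT and 1.40, 0.846 and 0.914 CPM in CKO, on 6 to 16 counts in WT and 17 to 31 in CKO. All CKO libraries lay above all WT libraries, and the log2 fold change of 1.40 (SE 0.42, adjusted p = 0.0898, edgeR) did not pass the test. Its receptor gene Tnfrsf8 (CD30) had a log2 fold change of 0.51 with a 95% interval from -0.56 to 1.58. Tnfsf9 (4-1BBL) was at 3.67, 3.64 and 5.74 CPM in WT and 7.79, 5.23 and 6.11 CPM in CKO, with WT replicate 3 above CKO replicate 2. Its log2 fold change was 0.55 (SE 0.24, adjusted p = 0.231, edgeR), and 14.9% of its exonic bases overlap a gene on the opposite strand. Tnfsf8 and Tnfsf9 were called without WT replicate 3 only, at 1.80 and 0.81. Tnfsf14 (LIGHT) had a log2 fold change of 0.49 (SE 0.39), and Tnfrsf14 (HVEM), one of its receptors, -0.25 (SE 0.18). When a library was left out, Tnfsf14 ran from 0.22 without CKO replicate 2 to 0.91 without WT replicate 2, Tnfrsf14 from -0.43 without CKO replicate 2 to -0.14 without CKO replicate 1, and Tnfrsf8 from 0.22 without WT replicate 2 to 1.11 without WT replicate 1.

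The B cell ligands and receptors overlapped between genotypes. Tnfsf13b (BAFF) had a log2 fold change of 0.28 (SE 0.30), Tnfsf13 (APRIL) 0.18 (SE 0.33) and the read-through gene Tnfsfm13 -0.45 (SE 0.27). Tnfsf13b was at 0.65 and Tnfsf13 at -0.12 without WT replicate 3, neither called. Of the exonic bases, 60.0% in Tnfsf13 and 78.1% in Tnfsfm13 are shared with other genes. Tnfrsf13b (TACI), a receptor of BAFF and APRIL, was at 16.6, 14.0 and 12.6 CPM in WT and 12.4, 18.6 and 12.8 CPM in CKO, without a clear order of the libraries. Cd40, the receptor of CD40 ligand on macrophages and B cells, had a log2 fold change of 0.34 (SE 0.32) with all libraries and 0.027 without WT replicate 3, whose level of 4.02 CPM was the lowest of the 6. Of 5 B cell genes counted, Cd79a, Cd79b, Ms4a1 and Pax5 had at most 9 counts in any library and Cd22 had 212 to 352, and the list summed to 10.8 to 13.0 CPM in WT and 10.1 to 11.8 CPM in CKO. Of 4 T and NK cell genes counted, Cd3d and Cd2 had at most 1 count in any library, Lck 3 to 12 and Cd4 44 to 94, with sums of 2.71 to 3.93 CPM in WT and 2.52 to 3.73 CPM in CKO.

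The remaining receptors tested had log2 fold changes near 0 with different precision. Ltbr was at -0.033 (95% interval -0.24 to 0.17) on 2256 to 3148 counts per library. Cd27, a receptor of lymphocytes, was at 0.14 (-0.66 to 0.94) on 14 to 26 counts, and Tnfrsf4 (OX40) at -0.068 (-1.16 to 1.03) on 6 to 25 counts. The 6 members that did not pass the filter, Tnfsf4, Tnfsf15, Tnfrsf9, Tnfrsf25, Tnfrsf17 and Ltb, had between 0 and 16 counts per library. Ltb (lymphotoxin-β) had 7, 5 and 3 counts in WT and 1, 1 and 0 in CKO, and Tnfrsf25 (DR3) 11, 16 and 6 in WT and 2, 7 and 2 in CKO. Tnfrsf25 passed the filter when WT replicate 3 was left out, through the WT libraries alone. Its level was 0.480 and 0.588 CPM in WT replicates 1 and 2 and at most 0.348 CPM in CKO. The log2 fold change of -1.59 (SE 0.65, adjusted p = 0.0969, edgeR) in that fit is therefore a description.

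**Figure D3:**
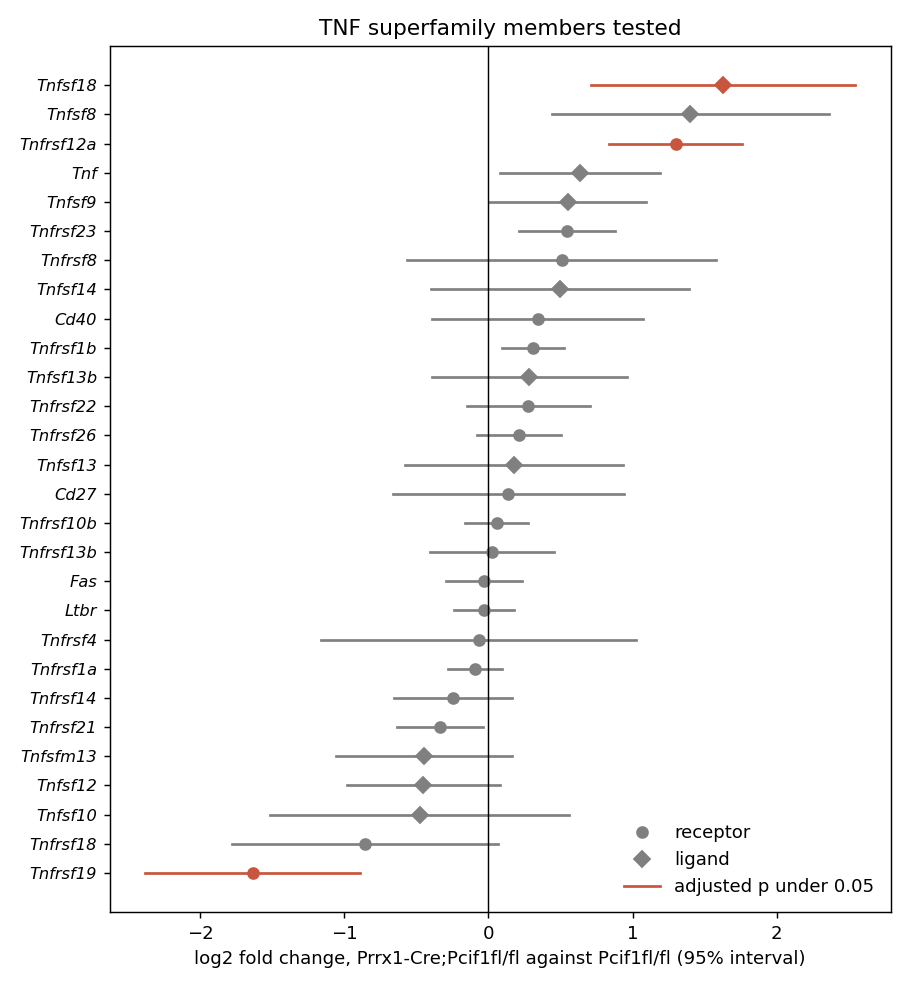
Log2 fold change of Prrx1-Cre;Pcif1fl/fl against Pcif1fl/fl for the 28 members tested with edgeR, with 95% intervals, receptors as circles and ligands as diamonds, and red for an adjusted p under 0.05. Tnfsf18 (1.63), Tnfrsf12a (1.30) and Tnfrsf19 (-1.64) are the 3 members called, and 19 of the 28 members lie within 0.5 of 0.

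Leaving out WT replicate 3 changed the number of members called more than leaving out any other library did. With all 6 libraries 2 members were called higher and 1 lower. Without it 9 of 29 members tested were called higher (31.0%, beside 11.1% of all genes tested in that fit) and 1 lower (beside 10.4%). The 9 were Tnfrsf12a, Tnfsf18, Tnfrsf23, Tnfrsf22, Tnfrsf26, Tnfrsf1b, Tnf, Tnfsf8 and Tnfsf9, and the lower member was Tnfrsf19. Of the 9, Tnfsf18 and Tnfsf8 passed the filter of this fit through the CKO libraries alone, so these shares are descriptions. The median log2 fold change of the members was 0.12 without that library and 0.16 with it. WT replicate 3 was the highest or lowest of the 6 libraries in 13 of the 28 members, WT replicate 1 in 14, and CKO replicate 3 in 3.

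**Figure D4:**
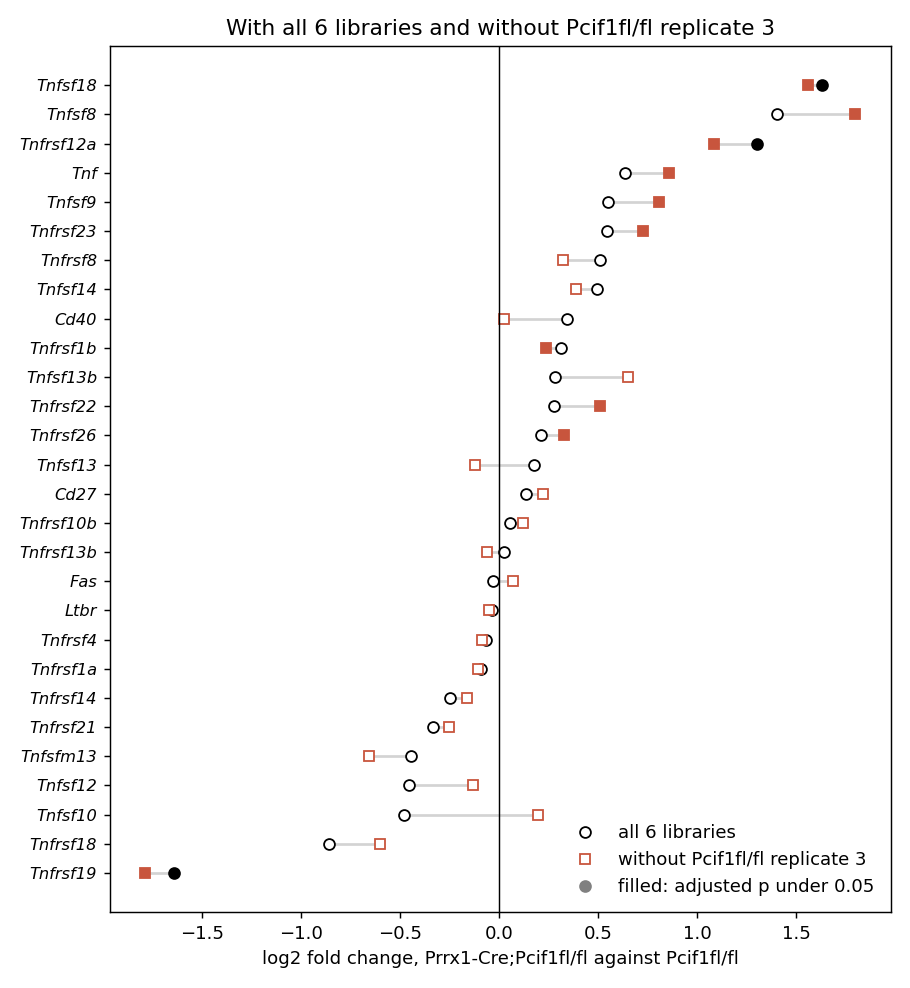
Log2 fold change of the 28 members tested, with all 6 libraries (black circles) and without Pcif1fl/fl replicate 3 (red squares), filled where the adjusted p is under 0.05. With all libraries 3 symbols are filled, without replicate 3 of Pcif1fl/fl 10 are, and Tnfsf10 moves from -0.48 to 0.20.

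Genes that process the ligands or carry the signal were read from lists of TNF pathway genes, of which 99 were tested and 14 called (14.1%, beside 7.40% of all genes tested), 8 higher and 6 lower. Their median log2 fold change was 0.045, and without WT replicate 3 the calls were 23 higher and 12 lower, in a fit that called 11.1% of all genes higher and 10.4% lower. Of 8 genes of ligand shedding, with a median log2 fold change of 0.061, edgeR, DESeq2 and limma-voom called 0, and edgeR gave 0 an unadjusted p under 0.05. Adam17, the protease that frees TNF from the cell surface, had a log2 fold change of -0.0030 (SE 0.090). Of 40 adaptors, kinases, caspases and NF-κB factors, 1 was called, Cflar, which encodes the caspase-8 inhibitor cFLIP. It was at 137, 143 and 161 CPM in WT and 193, 194 and 201 CPM in CKO, without overlap, for a log2 fold change of 0.41 (SE 0.092, adjusted p = 0.0314, edgeR). The median of the 40 was 0.018, and all lay within 0.5 of 0, among them Fadd at 0.10, Casp8 at 0.086, Traf2 at 0.085, Ripk1 at -0.19 and Rela at -0.21.

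Of 12 inhibitors and feedback genes, 2 were called (16.7%, beside 7.40% of all genes tested), both lower in CKO, and the median log2 fold change was 0.061. Tnip1, a partner of the ubiquitin-editing protein A20, was at 61.0, 55.1 and 65.2 CPM in WT and 40.2, 41.1 and 39.8 CPM in CKO, for a log2 fold change of -0.58 (SE 0.098, adjusted p = 0.00934, edgeR). Nfkbie, the gene of the NF-κB inhibitor IκBε, was at 15.9, 15.7 and 16.7 CPM in WT and 11.2, 10.5 and 10.7 CPM in CKO, for a log2 fold change of -0.58 (SE 0.11, adjusted p = 0.0192, edgeR). In both genes every CKO library was below every WT library. Tnfaip3, the gene of A20, and Nfkbia, that of IκBα, are themselves induced by NF-κB, and their log2 fold changes of 0.37 and 0.28 did not pass the test (adjusted p = 0.123 and 0.201, edgeR).

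Known targets of TNF and NF-κB were called in either direction, 7 higher and 3 lower of 32 tested (31.2%, beside 7.40% of all genes tested), and their median log2 fold change was 0.14. By p-value the first 5 were the monocyte chemokines Ccl2 (2.22, SE 0.12) and Ccl7 (1.66, SE 0.16), the prostaglandin synthase gene Ptgs2 (2.15, SE 0.24), the cytokine gene Lif (1.02, SE 0.13) and the complement gene C3 (-2.23, SE 0.21), with adjusted p between 5.2e-05 and 0.0027 in edgeR. Ptgs2 was at 3.19, 5.55 and 5.59 CPM in WT and 21.9, 17.0 and 25.2 CPM in CKO, and C3 at 40.1, 34.6 and 51.5 CPM in WT and 11.3, 7.52 and 8.03 CPM in CKO. The genotypes stood well apart in each. Csf1 (0.66), Fos (0.81) and Junb (0.75) were the other targets called higher, and Lcn2 and Vcam1 (-0.52) the others called lower. Lcn2 held 24 to 41 counts in WT and 0, 0 and 2 in CKO, at or under the floor of 3 counts, and passed the filter through the WT libraries alone, so its place among the lower targets is a description. These genes answer to many signals besides TNF.

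Of the 7 relatives outside the family rule that were tested, 1 was called (14.3%, beside 7.40% of all genes tested). Eda, the ectodysplasin ligand of skin appendages, was at 26.7, 24.5 and 22.6 CPM in WT and 9.59, 8.96 and 6.54 CPM in CKO, without overlap, for a log2 fold change of -1.55 (SE 0.16, adjusted p = 0.000974, edgeR). Eda lies on chromosome X, and the genotypes also differed in Xist. Eda2r, a receptor of ectodysplasin A2, had a log2 fold change of 0.36 (SE 0.091, adjusted p = 0.0521, edgeR).

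**Figure D5:**
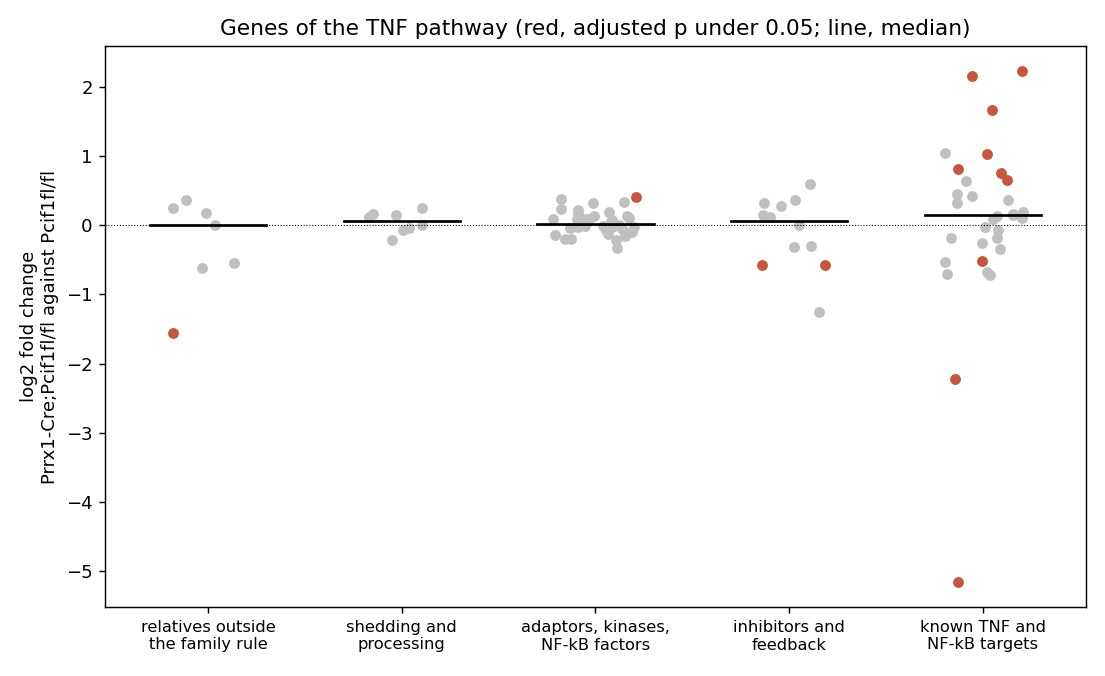
Log2 fold change of Prrx1-Cre;Pcif1fl/fl against Pcif1fl/fl for the 99 genes tested in 5 lists of TNF pathway genes, 1 point per gene, red for an adjusted p under 0.05 and a line at each median. The 40 adaptors, kinases and NF-κB factors lie within 0.5 of 0 with 1 gene called, and 10 of the 32 known targets were called, with Ccl2 highest at 2.22 and Lcn2 lowest, a fitted value against a group with 0 to 2 counts per library.

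Markers of other cells were read beside these results. The summed level of 10 mesenchymal and osteoblast genes was 7542 to 9938 CPM in WT and 12694 to 13531 CPM in CKO, a sum led by collagen I. Col1a1 and Col1a2 were called higher and Alpl, Sp7 and Pdgfra lower, and the median log2 fold change of the genes tested was -0.25. Of the others tested, Prrx1 (0.25) and Twist1 (0.38) lay above 0 and Pdgfrb (-0.25) and Runx2 (-0.41) below, so the sum does not stand for the list. Endothelial genes summed to 25.3 to 38.6 CPM in WT and 22.2 to 24.1 CPM in CKO, without overlap between genotypes and with WT replicate 3 highest. Cdh5, a gene of endothelial junctions, was at 10.4 to 16.1 CPM in WT and 8.08 to 8.41 CPM in CKO, and its log2 fold change of -0.66 had an adjusted p of 0.0618 in edgeR. Of the 7 endothelial genes tested, edgeR and limma-voom called 0 and DESeq2 called 1. Without Cdh5 the endothelial sums overlapped, at 14.9 to 22.5 CPM in WT and 14.0 to 15.9 CPM in CKO. The other endothelial genes overlapped between genotypes, Pecam1 (-0.48), Emcn (-0.56) and Tie1 (-0.38) with log2 fold changes below 0 and Kdr (0.26), Tek (0.23) and Erg (0.11) above 0. Neutrophil genes summed to 1.00 to 1.14 CPM in WT and 1.44 to 1.98 CPM in CKO. S100a8 carried that difference, and without it the sums overlapped, at 0.480 to 0.845 CPM in WT and 0.337 to 0.585 CPM in CKO. The cultures carried mesenchymal and macrophage genes, and the part of either cell type in the differences of Tnfrsf12a and the targets was not tested.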

How the data were processed

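Libraries were made from polyadenylated RNA, 3 of WT and 3 of CKO MSCs. The authors mapped reads to mm10 with HISAT2 and deposited unnormalized counts of reads per gene. How reads were assigned to genes, with which annotation and strand setting, is not given in the sources used here, so antisense, overlapping and near-identical genes may share reads. The design text speaks of duplicates, whereas the labels give 3 libraries per genotype. Repeated rows (92 of 20163, with identical counts) were used once.

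The quasi-likelihood test of edgeR 4.0.16 in R 4.3.3 (glmQLFit and glmQLFTest on TMM-scaled counts after filterByExpr, no covariate) was run over all genes, with Benjamini-Hochberg adjustment and a threshold of 0.05. The SE of a log2 fold change was its size over the square root of F. CPM were scaled by TMM factors. Positions, overlaps and exonic lengths come from GENCODE M21, start sites from RefSeq GRCm38.p6. DESeq2 1.42.0 and limma 3.58.1 (voom), other scalings and filters, a replicate block and leaving out each library were alternatives. The fits were tested on simulated counts. With 3 libraries against 3, an exact permutation test cannot go below 0.1. Without molecular identifiers, intervals do not account for PCR duplication. Members, lists and the rule for naming genes (every member, and of the pathway lists the called genes, first the 5 with the smallest p) were chosen with earlier results of these data known.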

Additional observations from a re-analysis of the deposited data

How the results depend on the processing

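Tnfrsf12a was called in each of the 14 alternative fits, Tnfrsf19 in 10 and Tnfsf18 in 8. The count of members called higher, 2 in the fit reported, was 4 with DESeq2, which added Tnfrsf23 and Tnfrsf1b, 3 without an expression filter, which added Tnfrsf23, 1 with limma-voom and 1 with the replicate number as a block, and ran from 1 to 9 when a library was left out. The count of members called lower, 1, ran from 0 to 1 there. Over all genes, 396 higher and 620 lower became 142 and 343 where a log2 fold change of 1 or more in size was also required, 648 were higher and 887 lower with DESeq2, and leaving out a library gave 148 to 1544 higher and 324 to 1447 lower. For the pathway lists, 8 higher and 6 lower became 4 and 3 at that fold change, and 5 to 23 and 3 to 12 when a library was left out. The highest of the counts of higher genes came without WT replicate 3. The cause of these changes was not tested.

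The deviations of same-numbered libraries had correlations of 0.0554, -0.045 and -0.013 for numbers 1 to 3. With 3 libraries per genotype these cannot show whether the numbers mark a pairing, and the labels do not say. The replicate block gave 267 genes higher and 503 lower over all genes, and 7 and 4 in the pathway lists.

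Of 392 values of single members over these fits, 361 kept their direction and their side of the threshold, 10 lost and 10 gained a call, and 11 changed sign, none of them called. These were Cd27 without WT replicate 1 (-0.030) or CKO replicate 3 (-0.094), Fas without WT replicate 3 (0.069) or CKO replicate 1 (0.00044), Ltbr without WT replicate 1 (0.036), Tnfrsf13b without WT replicate 3 (-0.060) or CKO replicate 2 (-0.18), Tnfrsf4 without WT replicate 2 (0.0058) or CKO replicate 1 (0.36), and without WT replicate 3 Tnfsf10 (0.20) and Tnfsf13 (-0.12). The median over all genes tested lay between -0.0208 and 0.013 in all of these fits. Leaving out a library in turn gave ranges of -0.094 to 0.36 for Cd27, -0.092 to 0.069 for Fas, -0.075 to 0.036 for Ltbr, -0.18 to 0.14 for Tnfrsf13b, -0.57 to 0.36 for Tnfrsf4, -0.78 to 0.20 for Tnfsf10 and -0.12 to 0.41 for Tnfsf13. The 95% intervals of Tnfrsf4 and Tnfrsf8, with at most 25 counts in any library, include changes of 1 on the log2 scale. So do those of other members not called, among them Tnfsf10 (-1.51 to 0.56), Tnfrsf18 (-1.78 to 0.064), Tnf (0.080 to 1.19) and Cd40 (-0.39 to 1.07).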
